A study of Mus musculus with 2 samples.

Results

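The small leucine-rich proteoglycans are secreted matrix proteins that carry a chain of leucine-rich repeats and, in many members, chondroitin, dermatan or keratan sulfate chains. They lie along collagen fibrils, where they set fibril diameter and spacing, and several of them bind growth factors such as TGF-β. The genes examined here were Aspn, Ogn, Dcn, Bgn, Lum, Fmod, Omd, Prelp, Podn and Kera. They were chosen by name, with earlier results of these data known. Every probe set that the platform annotation assigned to one of them alone was taken. This gave 21 probe sets for 10 genes, out of 18193 named genes on the array.

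The cells were young mouse embryonic fibroblasts (MEFs), primary cells of whole C57BL/6 embryos at day 13.5 that were used at passage 2. They were transfected with GapmeR Control or with GapmeR AK156230, an antisense oligonucleotide that directs RNase H to the lncRNA AK156230, whose role in cellular senescence the study examined. Total RNA of each condition was hybridized to 1 array, so no difference has a replicate check and no p-value is given. Only 1 GapmeR against AK156230 was on the arrays, so an effect of losing the lncRNA and an effect of that oligonucleotide on other RNAs cannot be told apart.

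The signals had a median of 54.80 on the control array (GapmeR Control) and 50.95 on the other, and their log2 values had a Pearson correlation of 0.970 across probe sets, which are not independent replicates. The platform annotation used here names no probe set for AK156230, and the knockdown was not read from the arrays. All 15 fibroblast markers were at or above the median signal of the array on which they were brighter, as were 12319 of the 18193 named genes, 7 of 9 leukocyte and macrophage markers and 7 of 10 chondrocyte markers, so this check bears little on the labelled cell type. Signals are given on the MAS5 scale, and a difference is given as a log2 ratio, the knockdown (GapmeR AK156230) over the control (GapmeR Control). Where a gene had several probe sets, the one with the highest mean log2 signal stood for it, and lower or higher refers to a ratio of 2 or more, which is a rule of size and not a test. In RNA of a whole culture, fewer cells that make a transcript and less of that transcript per cell cannot be told apart.

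Aspn and Ogn, which lie close together on chromosome 13, had much lower signals after transfection with GapmeR AK156230. The 250 bases upstream of their starts are shown because both genes were lower together, and those of Bgn, another class I gene with little difference between the arrays, are shown beside them. The sequences are those of RefSeq on GRCm38.p6, each on the + strand and ending at the base before the annotated start, at chr13:49544193-49544442 for Aspn, chr13:49607765-49608014 for Ogn and chrX:73483351-73483600 for Bgn. Capitals mark matches on either strand to TATAAA (the TATA box), CCAAT (the CCAAT box), GGGCGG (the GC box), GGAATG (the core bound by TEAD factors) and TGANTCA (the AP-1 site).
Aspn: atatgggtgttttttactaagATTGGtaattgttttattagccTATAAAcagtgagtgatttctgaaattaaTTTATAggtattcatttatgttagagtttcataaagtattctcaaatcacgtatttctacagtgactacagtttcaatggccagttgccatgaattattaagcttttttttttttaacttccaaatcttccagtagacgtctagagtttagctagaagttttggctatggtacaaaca
Ogn: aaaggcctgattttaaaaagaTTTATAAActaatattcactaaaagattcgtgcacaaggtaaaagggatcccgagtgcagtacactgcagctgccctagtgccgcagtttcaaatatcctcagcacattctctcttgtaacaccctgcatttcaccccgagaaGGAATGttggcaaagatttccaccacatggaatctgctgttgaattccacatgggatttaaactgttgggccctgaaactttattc
Bgn: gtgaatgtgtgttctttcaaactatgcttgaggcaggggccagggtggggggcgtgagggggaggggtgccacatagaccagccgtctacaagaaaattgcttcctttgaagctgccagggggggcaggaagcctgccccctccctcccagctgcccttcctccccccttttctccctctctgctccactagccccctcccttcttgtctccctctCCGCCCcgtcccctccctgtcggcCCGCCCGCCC

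The windows differed in base composition, with a GC content of 30.0% for Aspn, 42.0% for Ogn and 64.4% for Bgn, beside a median of 52.4% over 32851 such windows. Aspn held 2 matches to TATAAA and 1 to CCAAT, and Ogn held 2 overlapping matches to TATAAA, each on its own strand, and 1 to GGAATG. Bgn held 3 matches to GGGCGG and none to the other motifs. Of all windows, TATAAA was found in 12.4%, CCAAT in 33.8%, GGGCGG in 32.7%, GGAATG in 12.6% and TGANTCA in 6.75%. Among the 8 members with a window, TATAAA was found only in those of Aspn and Ogn, GGAATG only in that of Ogn, and TGANTCA in none. CCAAT was found in the windows of Aspn, Kera and Prelp, and GGGCGG in windows of Bgn and Podn. Those of Fmod and Omd held no match to any of the motifs. Dcn and Lum, of which Lum was lower too, had no entry. In the windows of Aspn and Ogn the TATAAA matches lie nearer the far end than the annotated start. The search took matches at any distance from the start. These matches describe letters and not sites that are known to be used, and a part in the differences was not tested.

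After transfection with GapmeR AK156230, 3 of the 10 genes were lower by 2-fold or more, namely Aspn, Ogn and Lum, and 0 were higher. Over all named genes, 3.85% were lower and 1.59% were higher by the same rule. As the members were chosen with earlier results of these data known, such comparisons describe them and are no test. The median log2 ratio of the members was -0.68, with a range from -3.51 to 0.06, against a median of -0.07 over all named genes. In 9 of the 10 genes the log2 ratio was below 0 and also below that median of all named genes. In 5 of these it passed 1.5-fold (Aspn, Ogn, Lum, Omd and Fmod), and in the other 4 (Podn, Kera, Bgn and Prelp) it did not. By the 1.5-fold rule, 9.69% of all named genes were lower. Prelp had a ratio of about 1 when both arrays were scaled to the same median. Counted as probe sets, 5 of 21 were lower, against 3.68% of the 34945 probe sets with a single gene, and 0 were higher, against 1.48%. The members span 6.7 to 38.7 kb of the genome, and the share lower was 4.92% of the genes at or above the median signal but 2.42% of those 5955 among them whose span was in that range.

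**Figure D1:**
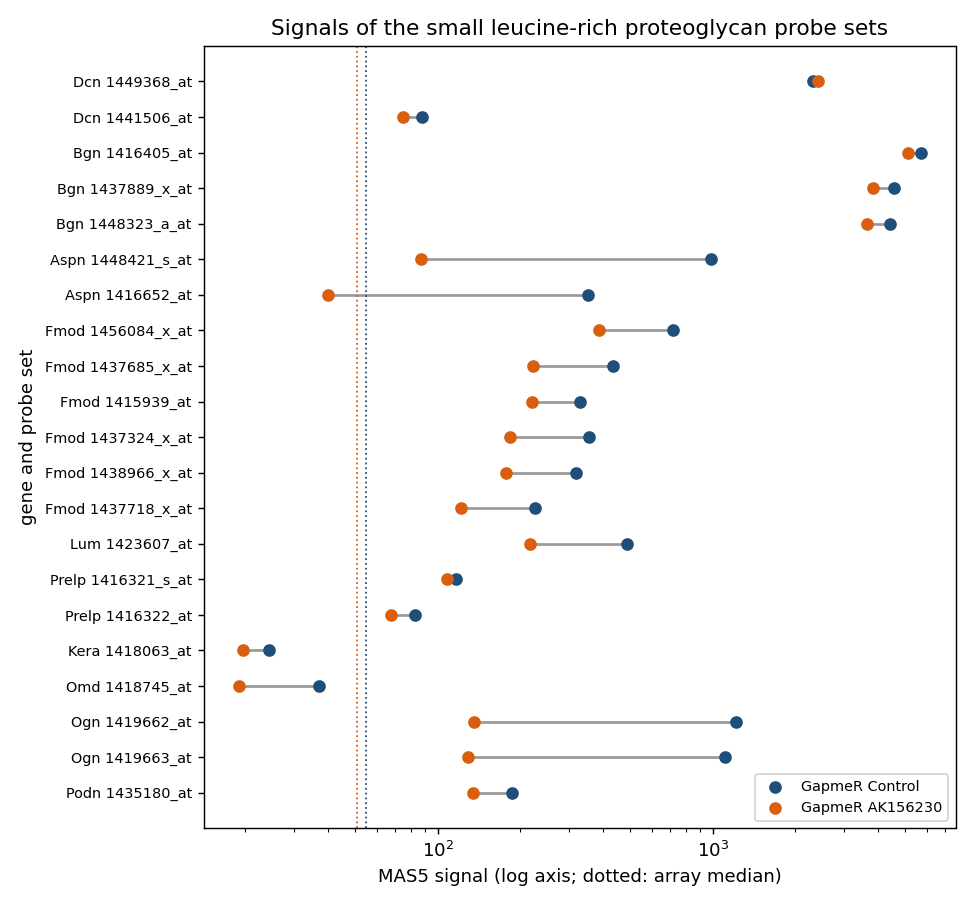
MAS5 signal on a log axis of each of the 21 probe sets of the 10 genes, with a point for GapmeR Control, a point for GapmeR AK156230 and a line joining them; dotted lines mark the array medians of 54.80 and 50.95. The points of Aspn and Ogn lie farthest apart, and those of the brightest Dcn probe set, 2309.31 and 2406.70, nearly coincide.

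Among the class I genes, Aspn was lower and its relatives Dcn and Bgn were not. Aspn encodes asporin, which carries a run of aspartates near its amino end, binds collagen and TGF-β and, unlike decorin and biglycan, has no glycosaminoglycan chain. The brightest Aspn probe set had a signal of 988.76 in control cells and 86.95 after the knockdown. This was an 11.4-fold lower signal, or 8.79% of the control, and a log2 ratio of -3.51. The other Aspn probe set had 351.70 and 39.88, which is 8.82-fold lower. Both probe sets thus went the same way by a similar amount, although the second was below the array's median signal after the knockdown. Ranked by decrease among 12319 genes at or above the median signal, Aspn was number 14, and 29 of these genes (0.235%) were lower by 8-fold or more.

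Dcn encodes decorin, the proteoglycan that decorates collagen I fibrils and a widely used marker of fibroblasts. Its brightest probe set gave 2309.31 in control cells and 2406.70 after the knockdown, a log2 ratio of 0.06. The second Dcn probe set was much dimmer, with 87.56 and 75.05 and a log2 ratio of -0.22. The sign of Dcn therefore depended on the probe set, and the mean of both was -0.08. Bgn, which encodes biglycan, a proteoglycan of bone and other connective tissue, had 5741.93 and 5147.41 at its brightest probe set. Its 3 probe sets had log2 ratios of -0.16, -0.26 and -0.28. The log2 ratios of Aspn and Dcn were 3.57 apart, a difference that no scaling of a whole array by one factor can change.

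Probe sets of the same gene gave the one measure of spread that could be had without replicate arrays. Over 5112 genes with at least 2 probe sets that bright, the SD of the log2 ratio of a probe set, from the difference within each pair, was 0.28. Within the members with several probe sets, the ratios lay between 0.06 (Ogn) and 0.39 (Fmod) apart. This spread covers the probe sets on these arrays and not the variation between cultures.

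Ogn, the only class III gene among the members, was lower to nearly the same extent as Aspn. It encodes osteoglycin, also called mimecan, which is cut to its mature form by the protease BMP1. One probe set had a signal of 1217.00 in control cells and 135.71 after the knockdown. The signals of the other were 1112.41 and 129.30. The 2 probe sets were 8.97-fold and 8.60-fold lower, with log2 ratios of -3.16 and -3.10, and both kept signals above the array's median. By decrease Ogn was number 25 of the 12319 genes. Its log2 ratio and that of Aspn differed by 0.34, against an SD of 0.28 per probe set.

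Class II holds members with keratan sulfate chains and the heparin-binding Prelp, and among its 5 genes Lum alone was past 2-fold. Lum encodes lumican, which spaces collagen fibrils in cornea and skin. Its only probe set read 486.72 in control cells and 217.15 after the knockdown, which is 2.24-fold lower (log2 ratio -1.16). It remained past 2-fold under each scaling tried, at -1.06 where both arrays were scaled to the same median. With 1 probe set, no second reading of Lum was at hand.

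Fmod and Omd were just short of the 2-fold limit. Fmod encodes fibromodulin, a collagen binder of tendon and cartilage, and was measured by 6 probe sets. The brightest had 717.49 (control) and 386.93 (knockdown), a log2 ratio of -0.89. The other ratios were -0.97, -0.96, -0.90, -0.85 and -0.58. All 6 were therefore below 0 and none reached 2-fold. The smallest difference, with 330.53 and 220.99, was that of the only probe set among the 6 whose identifier does not end in _x_at, a suffix for probe sets with probes that can also bind other transcripts. Omd encodes osteoadherin, a keratan sulfate proteoglycan of bone, and its probe set was dim on both arrays, with 37.04 and 18.88. Its log2 ratio of -0.97 became -0.51 when 24.3, the 25th percentile of all signals, was added to every signal.

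The remaining members differed little. Prelp, whose product binds heparin through an arginine- and proline-rich amino end, had 116.45 in control cells and 108.50 after the knockdown, and log2 ratios of -0.10 and -0.29 at its 2 probe sets. Podn, which encodes podocan, a class V member with a longer repeat domain, had 185.75 and 134.76 (log2 ratio -0.46). Kera encodes keratocan, a proteoglycan of the cornea. Its signals of 24.35 and 19.61 were below the medians of both arrays, so its log2 ratio of -0.31 is that of a dim probe set.

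**Figure D2:**
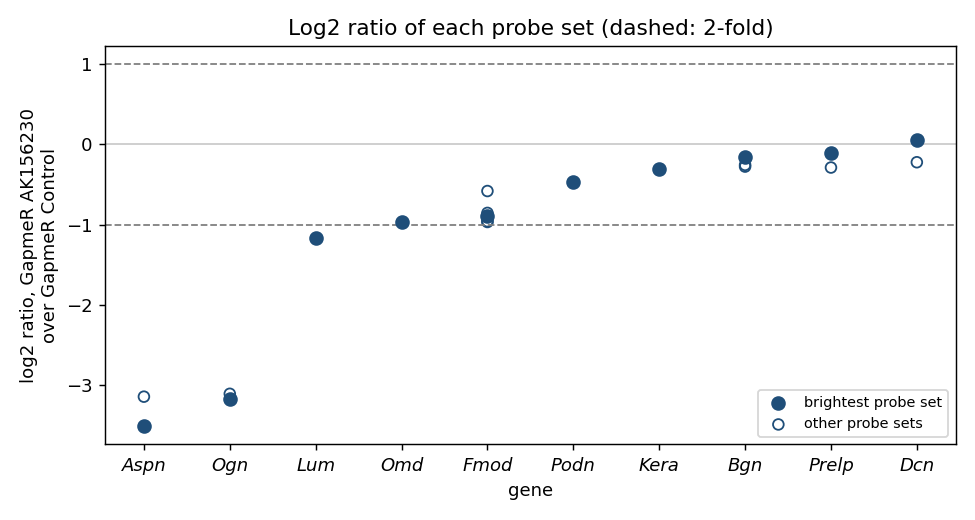
log2 ratio (knockdown over control) of every probe set, by gene in the order of the brightest probe set (filled); open circles are the other probe sets and dashed lines mark 2-fold. Aspn (-3.51) and Ogn (-3.16) stand apart from the rest, Lum is at -1.16, and Dcn is the only gene above 0.

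The members lie in groups on the chromosomes, and the differences did not follow these groups throughout. On chromosome 13 of GRCm38.p6, Aspn (49544443 to 49567565), Omd (49582462 to 49592612) and Ogn (49608015 to 49624501) stand in a row, 14.9 kb and 15.4 kb apart, and Ecm2, a related gene, lies 11.7 kb before Aspn. Here 2 of 3 members were lower, and the dim Omd was at -0.97. Ecm2 had signals of 18.11 and 13.43, below both medians, with a log2 ratio of -0.43. Bright signal thus came from Aspn and Ogn alone in this row, and a difference in the others was not measurable to the same extent.

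Cenpp, which encodes a protein of the centromere, spans 188.9 kb on the other strand, and its span contains Ecm2, Aspn, Omd and Ogn. Its brightest probe set had 97.94 (control) and 33.93 (knockdown), which is 2.89-fold lower. Of its other probe sets, one had a log2 ratio of -1.81 and one, at 15.50 and 13.68, was dim on both arrays. Beyond the row, Nol8 and Iars on one side and Ippk and Bicd2 on the other were within 2-fold, with log2 ratios of 0.33, -0.43, 0.02 and 0.09. Fgd3, within 250 kb of Aspn, was 2.41-fold higher at 1 of its 3 probe sets (62.80 and 151.37), while the others had log2 ratios of -0.10 and 0.23.

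On chromosome 10, Dcn (97479500 to 97518163), Lum (97565501 to 97572703) and Kera (97606962 to 97613688) are neighbours too. Lum was lower and Dcn was not, although they are 47.3 kb apart, and their log2 ratios differed by 1.22. Epyc, the next gene of the family, was dim, with 28.82 and 21.43. On chromosome 1, Prelp (133910304 to 133930102) and Fmod (134037254 to 134048280) differed by 0.79, and Optc, next to Prelp, was dim with 36.87 and 41.44. Bgn on chromosome X (73483601 to 73495936) and Podn on chromosome 4 (108014793 to 108031954) have no other member near them. There were 40 measured genes within 250 kb of a member that are not members themselves. By the brightest probe set, Cenpp was the 1 lower and Fgd3 the 1 higher by 2-fold or more. Over all named genes the shares were 3.85% and 1.59%. At a dimmer probe set, Lrp8 near Podn was at -1.87 and Dusp9 near Bgn at 1.28.

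**Figure D3:**
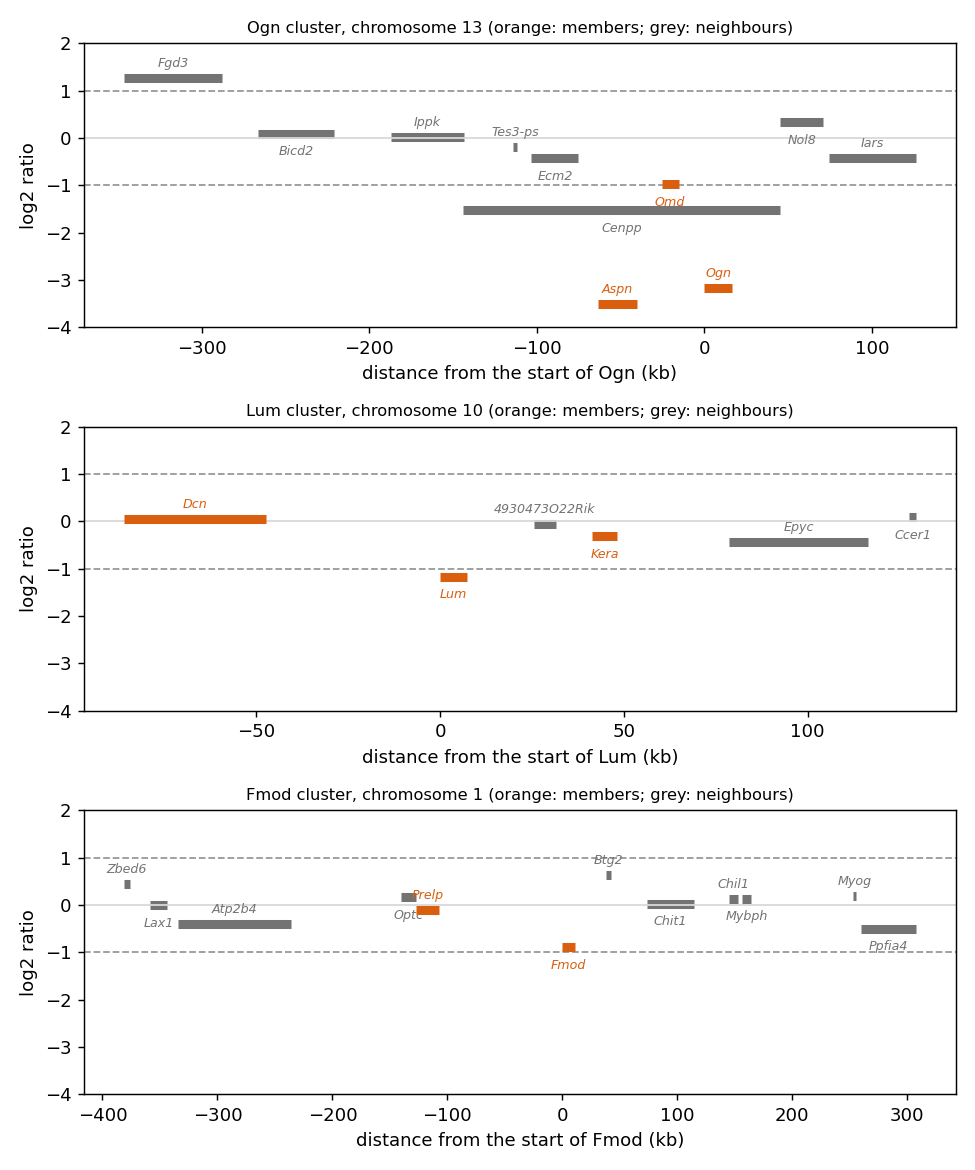
log2 ratio of each member (orange) and each measured neighbour (grey) in the groups on chromosomes 13, 10 and 1, as a bar from the start to the end of the gene by distance in kb; dashed lines mark 2-fold. Aspn and Ogn lie at -3.51 and -3.16 within the span of Cenpp (-1.53), and Dcn (0.06) and Lum (-1.16) lie apart on chromosome 10.

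None of the 6 measured genes of the family outside the members (Ecm2, Epyc, Optc, Chad, Chadl and Nyx) was past 2-fold. Their median log2 ratio was -0.29, and 5 of the 6 were below the median signal on both arrays. The members with differences past 2-fold were thus among the family genes with signals well above that median, and the dim ones could not be read as firmly.

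Enzymes that build the sulfated chains of these proteins were lower in part. Of 21 genes for the linker and the chondroitin or dermatan sulfate chains, 3 were lower and 0 were higher, with a median log2 ratio of -0.29. Csgalnact1, whose enzyme starts the chondroitin chain on the linker, read 487.41 in control cells and 107.68 after the knockdown, and its log2 ratios were -2.18 and -2.03 at its 2 probe sets. Chst11, a chondroitin 4-O-sulfotransferase, had 389.56 and 148.96, a log2 ratio of -1.39, while its dim second probe set was at -0.38. Chsy3, the other lower gene, was dim. Averaged over the probe sets of each gene, 1 of the 21 was lower. Csgalnact1, Chst11 and Chsy3 span 378.8, 211.5 and 236.0 kb. Ust of the same list, a uronyl 2-O-sulfotransferase gene of 314.1 kb, was within 2-fold at -0.27. Of 9 keratan sulfate enzymes, 0 were past 2-fold, and their median was -0.14, with Fut8, which spans 238.6 kb, at -0.10. Whether the span of a gene had a part in these differences was not tested.

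Among genes whose products the proteoglycans bind or are cut by, the collagens differed most. Of 12 collagen genes 9 were lower, or 7 with both arrays scaled to the same median, and 0 were higher. Their median log2 ratio was -1.56. Col2a1, the main collagen of cartilage, was at -2.18, and Col6a2, Col6a1 and Col5a1 were at -1.84, -1.83 and -1.79. The 3 collagen genes within 2-fold were Col1a1 (-0.99) and Col1a2 (-0.67), both of collagen I, and Col12a1 (-0.72). Dcn and Bgn, whose products sit on collagen fibrils, were at 0.06 and -0.16. Of 14 proteases 2 were lower, Mmp13 (log2 ratio -2.34) and Mmp2 (-1.10), while Bmp1, whose product cuts osteoglycin, was at 0.02. Of 16 growth factors and receptors Bmp4 was lower (-1.47), and Bmp2 (1.23) and the VEGF receptor gene Kdr (1.03) were higher, Kdr being dim in control cells (44.54). Tgfb1, Tgfb2 and Tgfb3 were within 2-fold at -0.45, -0.35 and -0.08. Of 9 large proteoglycan genes 2 were lower, Col18a1 (-1.62) and the perlecan gene Hspg2 (-1.09, with -0.55 at another probe set).

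**Figure D4:**
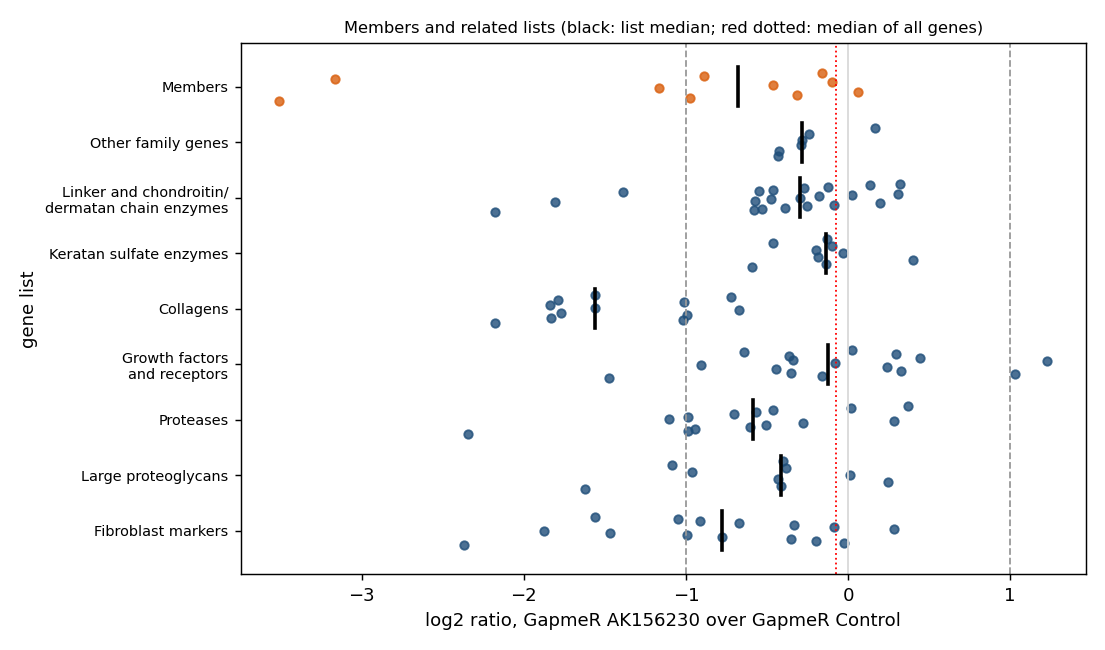
log2 ratio (knockdown over control) of the member genes (orange) and the genes of related lists (blue), where black bars are list medians, with dashed lines at 2-fold and a red dotted line at the median of all genes, -0.07. The median of the members lies at -0.68, that of the collagens at -1.56 and that of the other family genes at -0.29.

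Markers of fibroblasts and of skeletal cell types were also lower in part beside Aspn, Ogn and Lum, and their part in these differences was not tested. Of 15 fibroblast markers 5 were lower and 0 were higher, among which Fap and Pdgfra had log2 ratios of -2.37 and -1.87. The other Pdgfra probe sets were at -1.22 and -0.92. The remaining 10 markers were within 2-fold, from Col1a1 (-0.99) to Twist1 (0.29), with Vim at -0.09 and S100a4 at -0.02. Of the 15 markers 14 were below 0, and the median of the list was -0.78. The summed signal of the 15 was 48724 in control cells and 34480 after the knockdown. Of 7 tenocyte markers 3 were lower, or 0 with both arrays scaled to the same median, with summed signals of 2013 and 2021 to which Egr1, an early response gene, gave much. The lower ones lay close to the limit, among which were Tnmd (-1.08) and Col14a1 (-1.02). Of 10 chondrocyte markers Col2a1 and Matn3 (-1.78, with -0.56 at another probe set) were lower, and the summed signals were 892.2 and 457.9. None of 5 measured osteoblast markers was past 2-fold, with sums of 172.9 and 145.3. Leukocyte and macrophage markers had 2 of 9 genes higher, Cd68 (1.35) and Cd14 (1.24), with sums of 2634 and 2363. The other 7 were below 0 but within 2-fold, and the median of the list was -0.30. Among 9 keratinocyte markers Dsp (3.02, with 2.91 and 0.20 at other probe sets) was higher, with sums of 497.6 and 721.8. The rise of this sum came from Dsp, at 39.30 and 319.21. Among 6 endothelial markers Kdr was higher, with sums of 187.1 and 242.8. Most of the rise of this sum came from Kdr, at 44.54 and 90.91. When 24.3 was added to every signal, 0 of these markers were higher. No marker was listed at 0, but the lowest signal of any probe set was 1 and no detection calls were used. This therefore does not show that each marker was detected.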

How the data were processed

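The deposited values are MAS5 probe set intensities on a linear scale, which the authors scaled per array; the MAS5 version and scaling target were not given in the sources used here, and no detection calls were used. The methods name a porcine array, but the labels give mouse RNA and the probe sets are those of a mouse platform, whose annotation was used. Of 45037 probe sets, 34945 had 1 gene symbol, 932 had several and 9160 were not listed; symbols were updated through the Entrez ID for 34741. Positions and sequences came from RefSeq (GRCm38.p6). Log2 ratios were taken on the deposited intensities without an offset. The methods name SAM, which cannot run on 1 array per condition, so no test was made, and the number of arrays limits the precision.

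The members and the 14 gene lists (148 of 154 entries measured) were chosen with earlier results of these data known. Named were all members, up to 4 genes per list past 2-fold whose brighter signal reached the median of its array, and such neighbours within 250 kb; others named for contrast or as dim were chosen after their values were seen. No gene was named for a similar pattern, as 2 arrays give 1 difference per gene. The alternatives were 3 scalings (equal medians, quantile, loess on mean signal), an offset of 24.3, the mean over a gene's probe sets, leaving out _x_at and _s_at probe sets, a minimum signal, and thresholds of 1.5-fold and 3-fold. The counting was tested on simulated data. Python 3.11.15, numpy 2.4.6, pandas 2.3.3, scipy 1.17.1, statsmodels 0.14.6 and matplotlib 3.10.9 were used.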

Additional observations from a re-analysis of the deposited data

How the results depend on the processing

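Aspn, Ogn and Lum were lower by 2-fold or more under each scaling, the offset, the mean of all probe sets, the exclusion of _x_at and _s_at probe sets and the minimum signal, with log2 ratios from -3.51 to -3.14 for Aspn, -3.16 to -2.96 for Ogn and -1.16 to -1.06 for Lum. At 1.5-fold 5 members were lower, with Omd and Fmod added, and at 3-fold Aspn and Ogn were left. Over all named genes, 9.69% were lower and 5.48% higher at 1.5-fold, and 1.45% and 0.44% at 3-fold. The median log2 ratio of the members ranged from -0.68 to -0.45. Fmod was at -0.58 without _x_at and _s_at probe sets. With arrays scaled to the same median, 7 of the 12 collagens, 1 of the proteases and 1 of the large proteoglycans were lower. Over the 87 different genes of the 7 related lists, 17 were lower, or 13 with arrays scaled to the same median, and 2 were higher. At 1.5-fold 29 were lower, at 3-fold 9 were lower and 0 were higher, and with the offset 1 was higher. With arrays scaled to the same median, the median of all genes moved from -0.07 to 0.03, and the share of changed genes that were lower was 60.0% in place of 70.8%. The share of all genes lower by 2-fold or more was 2.42% in place of 3.85% for genes at or above the median signal with a span in the range of the members, a comparison chosen after seeing the data. No paired analysis was possible because each condition had 1 array. The log2 ratio of the dim Omd was -0.51 with the offset, and arrays give no counts from which a floor could be set.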
